A study of Homo sapiens with 2 samples.

Results

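Transcript levels of 42 genes of glycolysis, lactate handling, the pentose phosphate pathway and the tricarboxylic acid (TCA) cycle were compared between a pair of untreated prostate cancer cell lines. The genes were chosen by symbol from the 21382 genes of the deposited table, with earlier results of these data known, and all 42 were found in it. They comprise 4 glucose transporters, 17 genes of the glycolytic enzymes and the PFKFB enzymes that control them, 4 genes of lactate formation and export, 4 of pyruvate entry into mitochondria, 3 of the pentose phosphate pathway and 10 of the TCA cycle and its cytosolic counterparts.

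RNA-Seq of total RNA was available from MDA PCa 2b cells, a line established from a bone metastasis, and from RC77 T/E cells, an immortalized epithelial line from prostate tumor tissue, with 1 library for each line. MDA PCa 2b cells were kept in Kaighn's modified Ham's F-12 with 20% fetal bovine serum, cholera toxin, 10 ng/ml epidermal growth factor, 100 pg/ml hydrocortisone, 5 ug/ml insulin, 45 nM selenite and phosphoethanolamine, whereas RC77 T/E cells were kept in serum-free keratinocyte medium that contained bovine pituitary extract and epidermal growth factor. Cell line and culture medium therefore cannot be told apart. Neither line had a replicate library, so no difference below has a replicate error or a test, and each describes these libraries only.

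Levels are given in TPM, a measure of transcript abundance that divides reads by transcript length and library total and so keeps no record of depth. The decimal mark of many deposited values was missing and was restored from the deposited mean and standard error of each row. The mark has 1 possible position for 14 of the 42 genes, 2 for 20 genes and 3 for 8 genes. Where several fit, all levels are given, in matching order for both lines. A pair of levels gives MDA PCa 2b cells first, and a ratio is that of RC77 T/E over MDA PCa 2b unless stated. The ratio is the same at every position. A gene was counted as higher in a line when it was past 2-fold on the log2(TPM + 1) scale at the lowest position, which understates the difference of low genes.

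Glycolysis splits glucose into pyruvate in the cytosol. Pyruvate is then reduced to lactate by lactate dehydrogenase and exported, or enters mitochondria, where pyruvate dehydrogenase feeds the TCA cycle. Many steps are served by several isoenzymes encoded by separate genes, and tissues differ in which of them they use. Normal luminal prostate epithelium is known for secreting citrate instead of oxidizing it.

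Among the 42 genes, the largest ratios in favor of RC77 T/E cells were those of SLC2A3 (726), LDHB (189), SLC16A1 (7.56) and SLC2A1 (4.39), all genes of glucose uptake or lactate handling. The largest in favor of MDA PCa 2b cells were those of IDH1 (5.79), SLC2A10 (4.26) and GPI (3.64), whereas GAPDH and LDHA had nearly equal levels in both lines. These ratios have no pseudocount, and SLC2A3 was at 0.0278 TPM in MDA PCa 2b cells. On the log2(TPM + 1) scale LDHB, at 7.05, came before SLC2A3, at 4.36. Past 2-fold, RC77 T/E cells had higher levels of 7 of the 42 genes (16.7%), namely SLC2A1, SLC2A3, PFKFB4, PKM, LDHB, SLC16A1 and PC. Among all 11624 genes whose mean TPM reached 1, called expressed below, 19.4% were higher in RC77 T/E cells by the same measure. In MDA PCa 2b cells 6 of the 42 genes (14.3%) were higher, namely SLC2A10, GPI, PFKL, PDK1, IDH1 and MDH2, beside 20.0% of all such genes. The median log2 ratio, RC77 T/E over MDA PCa 2b, was -0.19 over the 42 genes and -0.15 over the 11624 genes. Neither share exceeded that of expressed genes in general, and the medians were close. In both lines 41 of the 42 genes reached 1 TPM, and SLC2A3 was the exception.

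**Figure D1:**
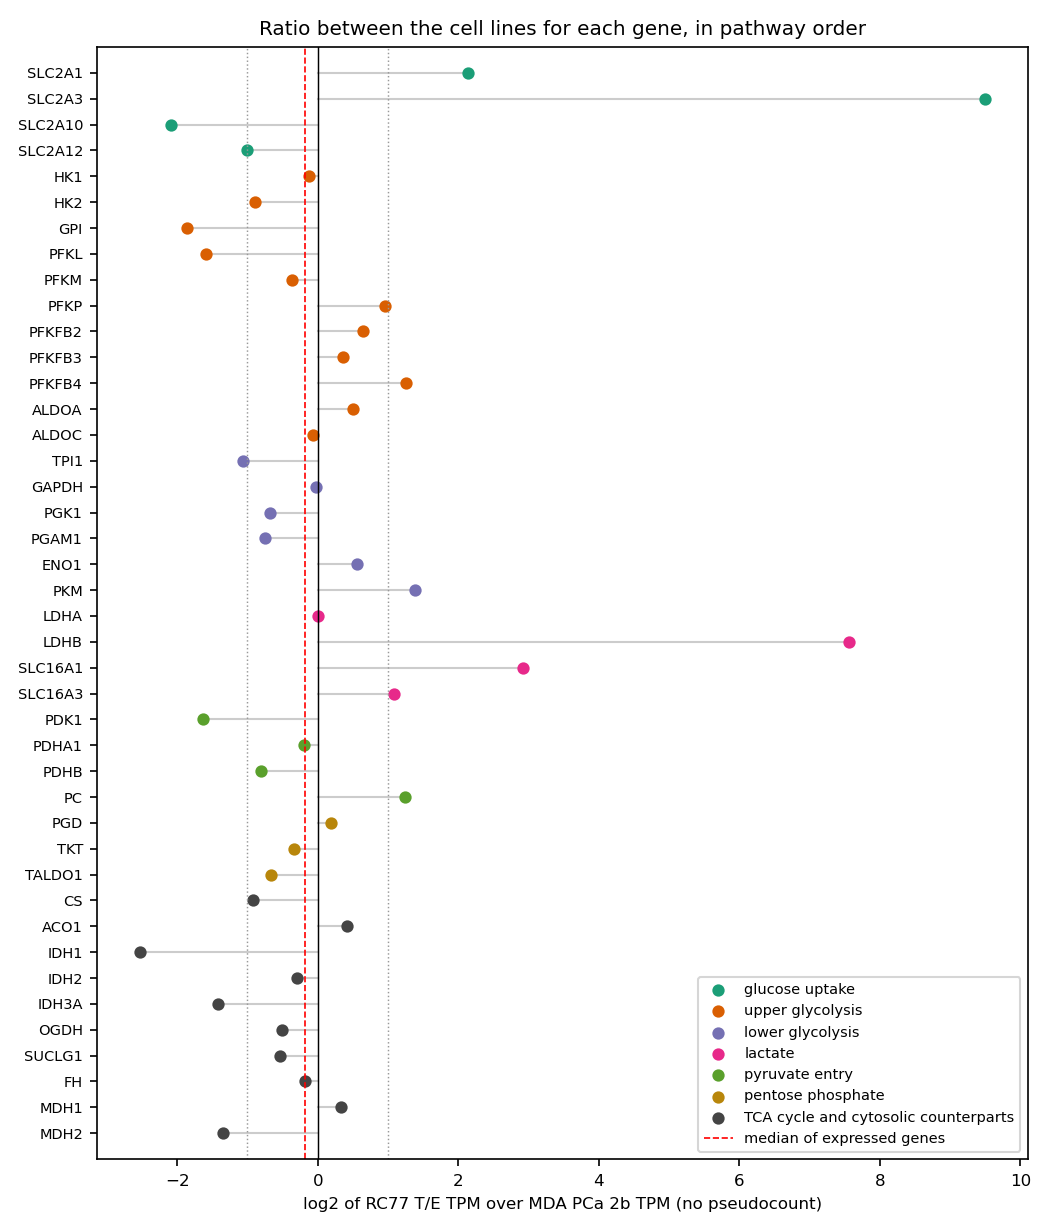
The log2 of RC77 T/E TPM over MDA PCa 2b TPM, without pseudocount, is plotted for each of the 42 genes in pathway order and colored by step, with 1 library per line; dotted lines mark 2-fold and the dashed line the median of expressed genes. SLC2A3 lies farthest to the right at 9.50 and IDH1 farthest to the left at -2.53. On this scale 8 genes (19.0%) lie past 2-fold on the right and 9 (21.4%) on the left. Among expressed genes above 0 in both lines these shares were 20.9% and 23.4%.

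Glucose enters cells through the facilitative transporters of the SLC2A (GLUT) family, and the 4 chosen genes differed between the lines in both directions. SLC2A1, which encodes the widely expressed transporter GLUT1 (chr1:42925353-42958893, GRCh38), was at 33.6 TPM in MDA PCa 2b cells and at 147.6 TPM in RC77 T/E cells, a ratio of 4.39. SLC2A3, which encodes the high-affinity transporter GLUT3 (chr12:7919230-7936187), was at 0.0278 TPM in MDA PCa 2b cells and at 20.2 TPM in RC77 T/E cells. Its plain ratio was 726, and 148 of the 11285 expressed genes above 0 in both lines had a larger one. SLC2A14, a near copy of SLC2A3, was listed at 0 and at 0.0261 TPM, and how reads shared by these genes were divided is not known.

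SLC2A10 and SLC2A12, the remaining chosen transporter genes, were lower in RC77 T/E cells. SLC2A10 (GLUT10) was at 22.3 or 223 TPM in MDA PCa 2b cells and at 5.23 or 52.3 TPM in RC77 T/E cells, higher in the former by 4.26 times. SLC2A12 (GLUT12) was at 3.39 TPM and at 1.68 TPM, within 2-fold on the log2(TPM + 1) scale with a log2 ratio of -0.71. Relative to SLC2A10, SLC2A1 was higher in RC77 T/E cells by 18.7 times, whichever position the mark of SLC2A10 has. SLC2A1 made up 56.7% of the summed TPM of these transporters in MDA PCa 2b cells and 84.5% of it in RC77 T/E cells at the lower position of SLC2A10, and 13.0% and 66.6% at the higher one. Its share was higher in RC77 T/E cells at both positions, but whether SLC2A1 or SLC2A10 was more abundant in MDA PCa 2b cells is not determined. Other SLC2A genes were not in this sum, and those given here were named after their values were seen. SLC2A8 was at 16.7 or 167 TPM in MDA PCa 2b cells and at 12.1 or 121 TPM in RC77 T/E cells. SLC2A6 was at 5.79 or 57.9 TPM and at 23.4 or 234 TPM. The leading transporter transcript of either line is therefore not determined.

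In upper glycolysis, glucose is phosphorylated and cleaved into triose phosphates. Of 11 genes here, 1 was higher in RC77 T/E cells, 2 were higher in MDA PCa 2b cells and 8 were within 2-fold. Hexokinases trap glucose as glucose 6-phosphate. HK1 was at 83.4 or 834 TPM in MDA PCa 2b cells and at 76.3 or 763 TPM in RC77 T/E cells, a ratio of 0.915. HK2 was at 30.0 or 300.2 TPM and at 16.2 or 162 TPM, a ratio of 0.541. The balance of HK1 over HK2 was thus 1.69 times as high in RC77 T/E cells. GPI, which converts glucose 6-phosphate to fructose 6-phosphate, was at 15.1 or 151 TPM in MDA PCa 2b cells and at 4.14 or 41.4 TPM in RC77 T/E cells, higher in the former by 3.64 times.

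Phosphofructokinase, the main control point of glycolysis, is built from liver, muscle and platelet type subunits, with ratios on both sides of 1. PFKL, the liver type, was at 12.2 or 122 TPM in MDA PCa 2b cells and at 4.06 or 40.6 TPM in RC77 T/E cells, a ratio of 0.333. PFKM, the muscle type, was at 45.1 or 451 TPM and at 34.8 or 348 TPM, a ratio of 0.772. PFKP, the platelet type, was at 3.60, 36.0 or 360.4 TPM and at 6.97, 69.7 or 697 TPM, a ratio of 1.93. PFKP and PFKL thus differed in opposite directions, and the balance of PFKP over PFKL was higher in RC77 T/E cells by 5.81 times. The balance of PFKP over PFKM was higher there by 2.50 times.

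The PFKFB enzymes set the level of fructose 2,6-bisphosphate, which activates phosphofructokinase, and all 3 chosen genes had ratios above 1. PFKFB2 was at 5.54, 55.4 or 554 TPM in MDA PCa 2b cells and at 8.63, 86.3 or 863 TPM in RC77 T/E cells, a ratio of 1.56. PFKFB3 was at 8.66 or 86.6 TPM and at 11.2 or 112 TPM, a ratio of 1.29. PFKFB4 was at 5.92 or 59.2 TPM and at 14.1 or 141 TPM, a ratio of 2.38. Of these, PFKFB4 alone was past 2-fold. UCN2, which overlaps PFKFB4 on the same strand, was at 0.239 TPM in MDA PCa 2b cells and at 7.98 TPM in RC77 T/E cells, and its part in the PFKFB4 ratio was not tested.

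Aldolase cleaves fructose 1,6-bisphosphate. ALDOA, its muscle type gene, was at 5.01, 50.1 or 501 TPM in MDA PCa 2b cells and at 7.07, 70.7 or 707 TPM in RC77 T/E cells, a ratio of 1.41. ALDOC, the brain type gene, was at 31.2 TPM and at 29.9 TPM, a ratio of 0.958. Neither passed 2-fold, and which of them was more abundant is not determined.

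**Figure D2:**
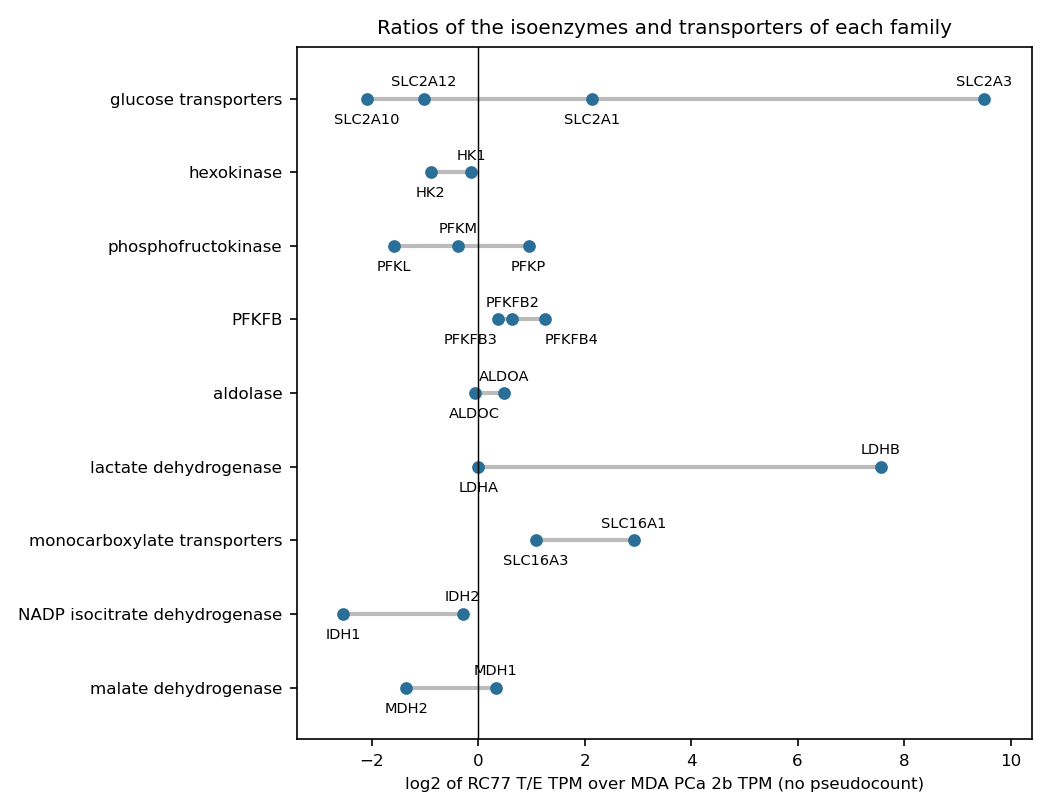
The log2 ratio of RC77 T/E over MDA PCa 2b TPM, without pseudocount, is plotted for each gene of 9 isoenzyme and transporter families, each line joining the genes of a family. Genes of the glucose transporter, phosphofructokinase, aldolase and malate dehydrogenase families lie on both sides of 0, and LDHA at 0.01 and LDHB at 7.56 are farther apart than the genes of any other family but the glucose transporters.

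Lower glycolysis turns triose phosphates into pyruvate and yields ATP. Of its 6 genes, PKM was higher in RC77 T/E cells and 5 were within 2-fold. GAPDH, which oxidizes glyceraldehyde 3-phosphate, was at 1957 TPM in MDA PCa 2b cells and at 1923 TPM in RC77 T/E cells, a ratio of 0.983. It was the most abundant of the 14 genes whose level is fixed, and the whole table held 91 genes above it in the library of MDA PCa 2b and 63 in that of RC77 T/E cells.

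Both genes that act on either side of GAPDH and the mutase that follows were lower in RC77 T/E cells. TPI1, which interconverts the triose phosphates, was at 6.60, 66.0 or 660 TPM in MDA PCa 2b cells and at 3.15, 31.5 or 315 TPM in RC77 T/E cells. Its plain ratio was 0.477, and on the log2(TPM + 1) scale it passed 2-fold only at the higher positions of the mark. PGK1, which makes the first ATP of the pathway, was at 30.0 or 299.7 TPM and at 18.7 or 187 TPM, a ratio of 0.623. PGAM1, a phosphoglycerate mutase, was at 345 TPM and 205 TPM, a ratio of 0.593. ATP7A, which overlaps PGK1 on the same strand, was at 2.89 and 2.23 TPM, and PGAM4, a near copy of PGAM1, was at 0.101 and 0.0830 TPM.

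The last enzymes before pyruvate had ratios above 1. ENO1, the common enolase, was at 5.34, 53.4 or 534 TPM in MDA PCa 2b cells and at 7.84, 78.4 or 784 TPM in RC77 T/E cells, a ratio of 1.47. PKM, a pyruvate kinase gene, was at 2.16, 21.6 or 216 TPM and at 5.62, 56.2 or 562 TPM, a ratio of 2.60. Its alternative splice forms, known as PKM1 and PKM2, were not separated in these values per gene.

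For lactate dehydrogenase the levels of both genes are fixed, and one of them differed widely while the other did not. LDHA encodes the subunit known for reducing pyruvate to lactate, and LDHB the subunit known for favoring the reverse reaction. LDHA (chr11:18394560-18408425, GRCh38) was at 537 TPM in MDA PCa 2b cells and at 539 TPM in RC77 T/E cells, a ratio of 1.00. LDHB (chr12:21635342-21757857) was at 2.32 TPM in MDA PCa 2b cells and at 438 TPM in RC77 T/E cells, a ratio of 189. The LDHA transcript thus had nearly the same level in both libraries, and the LDHB transcript did not. LDHB made up 0.429% of the summed TPM of both genes in MDA PCa 2b cells but 44.8% in RC77 T/E cells. Among the 11285 expressed genes above 0 in both lines, 333 had a larger ratio than LDHB.

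Other genes related to LDHA and LDHB were low. LDHAL6A was at 0.0688 TPM in MDA PCa 2b cells and at 0.175 TPM in RC77 T/E cells, and LDHAL6B at 0.112 and 0.258 TPM. In GENCODE release 29 a further protein-coding gene, AC010197.2, overlaps LDHB on the same strand, and no value of it was used here. How overlapping genes were counted is not given in the sources used here.

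The 250 bases before a RefSeq start of each gene (assembly GRCh38.p14) are shown. LDHA and LDHB were chosen for this because they differed so much in their ratios between the lines. Capitals mark ACGTG or its reverse complement CACGT, the core of the motif bound by hypoxia-inducible factors and shared by other factors. Where both overlap, in CACGTG, the 6 letters are capitals.
LDHA, chr11:18394313-18394562, plus strand: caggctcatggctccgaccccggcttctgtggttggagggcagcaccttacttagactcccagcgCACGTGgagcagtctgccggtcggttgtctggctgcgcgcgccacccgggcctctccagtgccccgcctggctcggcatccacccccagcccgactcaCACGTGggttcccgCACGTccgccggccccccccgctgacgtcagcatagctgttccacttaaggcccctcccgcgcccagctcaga
LDHB, chr12:21657843-21658092, minus strand: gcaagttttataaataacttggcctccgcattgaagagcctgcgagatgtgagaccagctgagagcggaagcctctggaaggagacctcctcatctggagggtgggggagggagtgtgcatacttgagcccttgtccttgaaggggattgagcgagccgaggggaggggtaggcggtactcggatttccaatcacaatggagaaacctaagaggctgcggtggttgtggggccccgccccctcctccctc
The LDHA stretch held 3 runs in capitals and 22 CpG dinucleotides with a GC content of 69.6%, whereas the LDHB stretch held 0 runs and 9 CpG dinucleotides with a GC content of 58%. LDHA has another RefSeq start farther downstream, which is not shown. The bases around that start, chr11:18396101-18396400, held 0 matches to the motif core, as did those around the LDHB start. The contrast in motif matches thus holds for the LDHA start shown and not for the other. The LDHB stretch lies inside the interval that the table gives for LDHB, which reaches farther upstream than the RefSeq start. Matches describe these letters only.

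Across windows of 300 bases around the RefSeq starts, 250 before and 50 after, 38 of the 42 genes had an entry. The genes without one were OGDH, SLC2A3, SLC16A1 and PFKFB2. The motif, on either strand, was found in at least 1 window of 18 of the 38 genes (47.4%) and of 3013 of 9219 expressed genes with an entry (32.7%). By single windows it was found in 22 of the 68 windows of these genes (32.4%) and in 7518 of all 35116 windows (21.4%). The latter include windows of genes not expressed here, and the share over windows of expressed genes was not computed. By gene, the share over all 27305 genes with an entry was 24.9%, under that of expressed genes. Of the genes of glycolytic enzymes, PFKFB enzymes and lactate dehydrogenase, 11 of 18 (61.1%) held it, in 15 of 39 windows (38.5%). Of those of the TCA cycle and its cytosolic counterparts, 1 of 9 genes (11.1%) held it, in 1 of 11 windows (9.09%). A gene had 1 to 7 windows, which raises the share by gene where there are more, and no difference between these groups was tested.

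Lactate leaves and enters cells through monocarboxylate transporters, and both chosen genes had ratios above 1. SLC16A1, which encodes MCT1, was at 1.54 or 15.4 TPM in MDA PCa 2b cells and at 11.6 or 116 TPM in RC77 T/E cells, a ratio of 7.56. SLC16A3, which encodes MCT4, the transporter known for export from glycolytic cells, was at 2.08, 20.8 or 208 TPM and at 4.40, 44.0 or 440 TPM, a ratio of 2.12. On the log2(TPM + 1) scale SLC16A1 was past 2-fold at both positions of its mark and SLC16A3 only at the higher positions of its own. MIR6787, a microRNA gene inside SLC16A3 on the same strand, was listed at 0 in MDA PCa 2b cells and at 14487 TPM in RC77 T/E cells, and its part in the SLC16A3 ratio was not tested. SLC16A1-AS1, on the opposite strand of SLC16A1, was at 0.104 TPM in MDA PCa 2b cells and at 7.17 TPM in RC77 T/E cells, and whether counting used strand is not stated. All 4 lactate genes had ratios of at least 1.00, the range being 1.00 to 189.

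**Figure D3:**
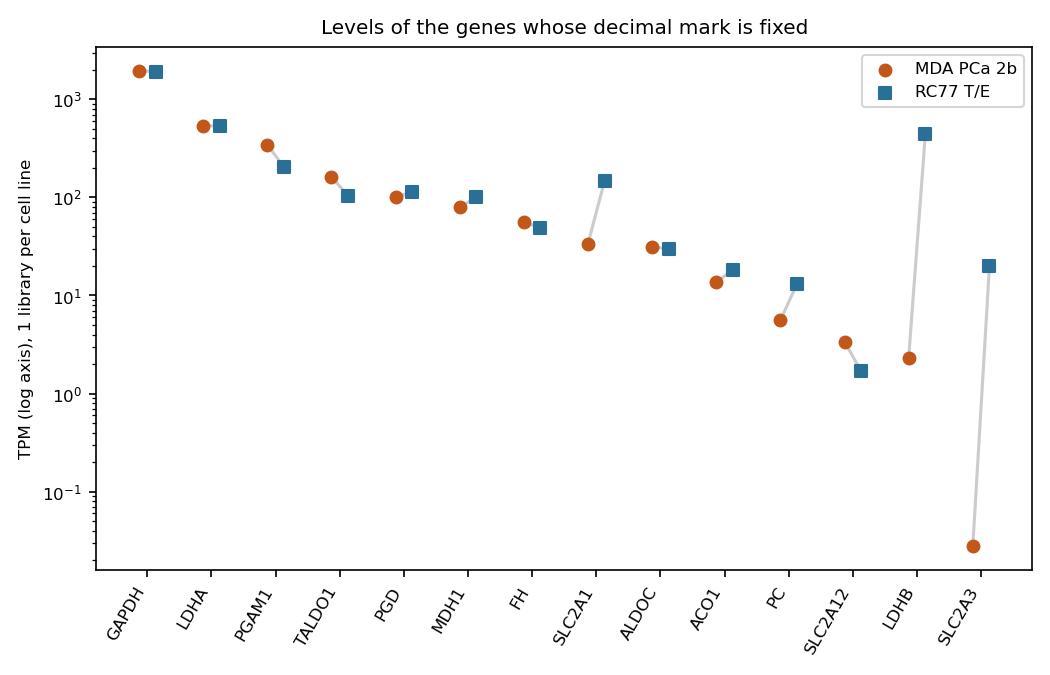
TPM in each cell line, 1 library each, is plotted on a log axis for the 14 genes whose decimal mark has 1 possible position. GAPDH and LDHA have nearly equal levels in both lines, whereas LDHB goes from 2.32 to 438 TPM and SLC2A3 from 0.0278 to 20.2 TPM.

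Pyruvate dehydrogenase admits pyruvate to the TCA cycle as acetyl-CoA, PDK1 inhibits it by phosphorylation, and pyruvate carboxylase supplies oxaloacetate instead. PDK1 was at 16.7 or 167 TPM in MDA PCa 2b cells and at 5.39 or 53.9 TPM in RC77 T/E cells, higher in the former by 3.09 times. PDHA1, the catalytic alpha subunit of the dehydrogenase, was at 35.7 or 357 TPM and at 31.1 or 311 TPM, a ratio of 0.869. PDHB, its beta subunit, was at 5.89, 58.9 or 589 TPM and at 3.35, 33.5 or 335 TPM, a ratio of 0.570. The kinase thus differed past 2-fold and both subunits of its target were within it. PC, the carboxylase, was at 5.57 TPM in MDA PCa 2b cells and at 13.2 TPM in RC77 T/E cells, a ratio of 2.37 in the opposite direction to PDK1. LRFN4, on the opposite strand of PC, was at 5.44 or 54.4 TPM and at 29.8 or 298 TPM, and its part in the PC ratio was not tested.

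The pentose phosphate pathway makes NADPH and ribose from glucose 6-phosphate, and its 3 genes were within 2-fold. PGD, the 6-phosphogluconate dehydrogenase, was at 100.0 TPM in MDA PCa 2b cells and at 114 TPM in RC77 T/E cells, a ratio of 1.14. TKT, transketolase, was at 31.3 or 313 TPM and at 24.7 or 247 TPM, a ratio of 0.789. TALDO1, transaldolase, was at 163 TPM and 104 TPM, a ratio of 0.634. The oxidative enzyme and the enzymes of the non-oxidative branch thus lay on opposite sides of 1, by amounts that no replicate allows to be judged.

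Of the 10 genes of the TCA cycle and its cytosolic counterparts, 0 were higher in RC77 T/E cells, 2 were higher in MDA PCa 2b cells and 8 were within 2-fold. The 7 genes of mitochondrial enzymes, CS, IDH2, IDH3A, OGDH, SUCLG1, FH and MDH2, all had ratios under 1, from 0.374 to 0.878, and MDH2 alone was past 2-fold on the log2(TPM + 1) scale. Of 9 further genes of mitochondrial TCA enzymes, DLST and the remaining subunits of isocitrate dehydrogenase, succinyl-CoA ligase and succinate dehydrogenase, 6 had ratios under 1 and 3 above 1, from 0.497 to 1.68. Those above 1 were IDH3B (1.34), SUCLG2 (1.68) and SDHA (1.44), named after their values were seen. Partner subunits of IDH3A thus lay on both sides, IDH3B above 1 and IDH3G (0.801) under it. Those of SUCLG1 did too, SUCLG2 above 1 and SUCLA2 (0.568) under it. Over all 42 genes 25 ratios were under 1, and the median of expressed genes was also under 1.

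CS, citrate synthase, was at 12.3 or 123 TPM in MDA PCa 2b cells and at 6.50 or 65.0 TPM in RC77 T/E cells, a ratio of 0.528. IDH3A, a subunit of the NAD-dependent isocitrate dehydrogenase, was at 3.30 or 33.0 TPM and at 1.23 or 12.3 TPM, a plain ratio of 0.374. On the log2(TPM + 1) scale it passed 2-fold only at the higher position. OGDH, of the oxoglutarate dehydrogenase complex, was at 48.5 or 485 TPM and at 34.1 or 341 TPM, a ratio of 0.702. These genes of the first part of the cycle were lower in RC77 T/E cells to differing degrees. SUCLG1, a succinyl-CoA ligase subunit, was at 49.6 or 496 TPM and at 34.3 or 343 TPM, a ratio of 0.692. FH, fumarase, was at 55.7 TPM and 49.0 TPM, a ratio of 0.878.

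Isocitrate and malate dehydrogenases exist as cytosolic and mitochondrial enzymes encoded by separate genes, and their balance differed between the lines in opposite ways. IDH1, the cytosolic NADP-dependent enzyme (chr2:208236229-208266074), was at 24.3 or 243 TPM in MDA PCa 2b cells and at 4.20 or 42.0 TPM in RC77 T/E cells, higher in the former by 5.79 times. IDH2, its mitochondrial counterpart, was at 46.1 or 461 TPM and at 37.7 or 377 TPM, a ratio of 0.819. Relative to the cytosolic gene, the mitochondrial isocitrate dehydrogenase transcript was thus 4.74 times as high in RC77 T/E cells. IDH1-AS1, on the opposite strand of IDH1, was at 20.8 or 208 TPM in MDA PCa 2b cells and at 4.44 or 44.4 TPM in RC77 T/E cells, and its part in the IDH1 values was not tested.

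MDH1, the cytosolic malate dehydrogenase, was at 79.9 TPM in MDA PCa 2b cells and at 100.3 TPM in RC77 T/E cells, a ratio of 1.26. MDH2, the mitochondrial one, was at 21.2 or 212 TPM and at 8.32 or 83.2 TPM, 2.54 times as high in MDA PCa 2b cells. Relative to the mitochondrial gene, the cytosolic one was thus higher in RC77 T/E cells by 3.20 times. ACO1, the cytosolic aconitase that also acts as an iron regulatory protein, was at 13.7 TPM and 18.3 TPM, a ratio of 1.34.

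The other genes of these pathways were taken from a list of 72, of which 71 were found and 52 were expressed. Of the 52, 9 (17.3%) were higher in RC77 T/E cells and 7 (13.5%) in MDA PCa 2b cells, beside 19.4% and 20.0% of all expressed genes, and the median log2 ratio was -0.30. The 4-fold limit for naming genes was also set on the log2(TPM + 1) scale at the lowest position. Past it and higher in RC77 T/E cells, SLC2A9, a urate and hexose transporter, was at 0.164 and 36.0 TPM. ME1, the cytosolic malic enzyme, was at 0.0335 and 12.8 TPM, and ME3, a mitochondrial one, at 0.0292 and 3.44 TPM. Both malic enzymes link malate with pyruvate. PDP1, the phosphatase that reverses the action of PDK1, was at 4.12 or 41.2 TPM and at 34.1 or 341 TPM, a ratio of 8.27, so the kinase PDK1 and this phosphatase differed in opposite directions.

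Past this limit and higher in MDA PCa 2b cells were MPC2 and FBP1. MPC2, a subunit of the mitochondrial pyruvate carrier, was at 33.8 or 338 TPM in MDA PCa 2b cells and at 1.15 or 11.5 TPM in RC77 T/E cells, higher in the former by 29.4 times. FBP1, the fructose bisphosphatase of gluconeogenesis, was at 5.41 and 0.0506 TPM, 107 times as high. PCK2, the mitochondrial phosphoenolpyruvate carboxykinase, at 20.2 or 202 TPM and at 4.83 or 48.3 TPM, was 4.19 times as high by its plain ratio but within the limit at the lowest position. PCK2 and MPC1 were named after their values were seen. MPC1, the partner subunit of MPC2, was at 11.4 and 11.7 TPM, so the pair of carrier subunits did not differ together.

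Several glycolytic genes are known targets of hypoxia-inducible factors, and a list of 17 other such targets was examined beside them. Of the 16 found, 3 (18.8%) were higher in RC77 T/E cells and 6 (37.5%) in MDA PCa 2b cells, with a median log2 ratio of -0.04. The shares of all expressed genes were 19.4% and 20.0%. CA9, carbonic anhydrase 9, was at 0.38 and 15.7 TPM, and ADM, adrenomedullin, at 1.83 or 18.3 TPM and at 22.1 or 221 TPM, both past 4-fold and higher in RC77 T/E cells. The others past 2-fold were named after their values were seen. P4HA2, a collagen prolyl hydroxylase subunit, was higher in RC77 T/E cells with a ratio of 3.15. EGLN3 (4.60 times), BNIP3 (4.20), ANKRD37 (4.13), FAM162A (3.45), MXI1 (2.32) and EGLN1 (2.28) were higher in MDA PCa 2b cells by their plain ratios. Genes of this list thus lay on both sides, as did the glycolytic enzymes and PFKFB genes, with 7 ratios above 1 and 10 below 1 among 17 genes.

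**Figure D4:**
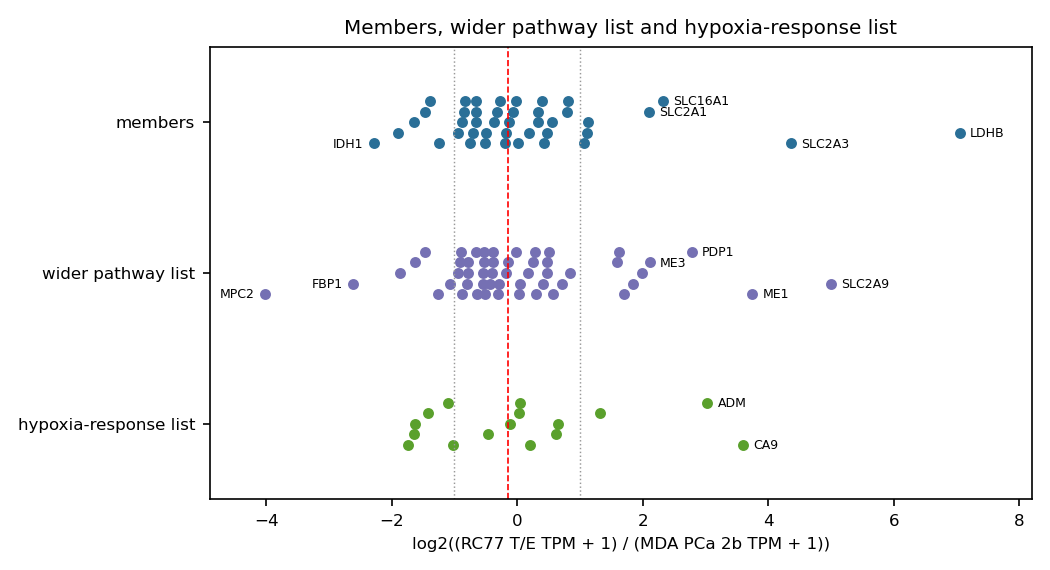
The log2 ratio of RC77 T/E over MDA PCa 2b, (TPM + 1) in each line, is plotted for the 42 genes (members), for 52 expressed genes of the wider pathway list and for 16 hypoxia-response genes, each point being a gene. Dotted lines mark 2-fold and the dashed line the median of all expressed genes, -0.15, around which the 42 genes and the wider list both spread.

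The labels of the lines were set against markers. All 6 prostate basal markers were higher in RC77 T/E cells, KRT5 being at 0.00435 and 4027 TPM, and 5 of 7 luminal markers were higher in MDA PCa 2b cells, KLK3 being at 5323 TPM and listed at 0. Summed TPM of 5 fibroblast markers was 2.21 and 9.22, of which COL1A1 had 8.24 in RC77 T/E cells, and the highest of 5 platelet markers in either line was at 0.659 TPM. Of 4 haematopoietic markers, CD68 was at 0.663 and 37.9 TPM and CD14 at 0.0730 and 4.92 TPM, with PTPRC at 0.0113 TPM and HBB at 0.216 TPM in MDA PCa 2b cells, both being listed at 0 for RC77 T/E cells. The part of these marker differences in the metabolic genes was not tested.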

How the data were processed

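Total RNA of both untreated lines, RC77 T/E and MDA PCa 2b, was sequenced by the authors as paired-end directional libraries, 1 for each line. The deposited table holds TPM values per locus, made by the authors, with their mean and standard error. The submitters' processing notes name CASAVA, FastQC 0.11.9, Trimmomatic 0.38, Salmon 1.2.0 and GRCh38. The form of the row identifiers is that of Cufflinks, and which program gave the TPM values is not given in the sources used here. Read counts were not used, so depth and the precision it gives are unknown.

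Deposited values that reach 1 TPM and have 3 or more decimals lacked a decimal mark. Positions leaving 1 to 3 digits before the mark were tried, and those matching the deposited mean and standard error were kept. Of 22791 rows, 16284 had 1 position and 6507 had more. A plain TPM table had been assumed. The restoration was run on simulated rows written by the same rule. Such rows cannot show whether the deposited marks were lost in this way. Sums, ratios and calls used the lowest position. Repeated loci were used once, and loci of a symbol were summed, leaving 21382 genes.

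Called genes were past 2-fold in log2 of TPM plus 1. The background was the 11624 genes whose mean TPM reached 1. Isoenzyme balances used plain ratios. No test was made, with 1 library per line. Positions are those of the table, and all 42 genes were found within GENCODE release 29. Promoter windows came from RefSeq, GRCh38.p14. Python 3.11.15, numpy 2.4.6 and matplotlib 3.10.9 were used.

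All 42 genes were named, as were genes of the wider pathway and hypoxia lists past 4-fold with at least 1 TPM in a line. TIGAR and ERO1A of these lists were not analysed here. Members and lists were chosen with earlier results of these data known. Alternatives were a pseudocount of 0.1 TPM, no pseudocount, other positions of the mark, other scalings, folds of 1.5 and 4, the largest locus of a symbol and all genes above 0 as background.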

Additional observations from a re-analysis of the deposited data

How the results depend on the processing

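Each library was alone in its line, and depth is unknown, so a value was counted as moved beyond 1.5 times. No paired analysis was possible because neither line has more than 1 library. Of 69 alternative values of the main results, 58 kept their direction and stayed within that factor. Some of the 58 could not have changed and say nothing about stability. Each of the 42 genes had 1 locus, so using the largest locus repeated the main values. Isoenzyme balances without pseudocount are the same at every position of the mark. Another background leaves the counts and median over the 42 genes as they were. Among the 69 values, the sign changed in 3. Besides the glucose transporters below, these were the summed TPM of upper glycolysis, with a log2 ratio of -0.20 and of 0.18 at the highest position of the mark, and the median over the 42 genes, -0.19 and 0.10 over those with 1 position. Past 1.5-fold, RC77 T/E cells had higher levels of 9 of the 42 genes (21.4%) and MDA PCa 2b cells of 15 (35.7%), beside 27.0% and 33.8% of all expressed genes. Past 4-fold, these counts were 4 (9.52%) and 1 (2.38%), beside 9.69% and 6.19%. The 14 genes with 1 position of the mark were a choice made after seeing the data. Of these, 4 (28.6%) were higher in RC77 T/E cells and 0 in MDA PCa 2b cells, beside 19.4% and 20.0% of all expressed genes. Counts over the 42 genes were 8 and 8 (19.0% each) with a pseudocount of 0.1 TPM, beside 21.8% and 23.5% of expressed genes. They were also 8 and 8 at the highest position of the mark, beside 21.1% and 22.9%. Without pseudocount they were 8 (19.0%) and 9 (21.4%), beside 20.9% and 23.4% of expressed genes above 0 in both lines. The log2 ratio of summed TPM of the glucose transporters was 1.56, but -0.23 at the highest position, through the level of SLC2A10, and 0.69 as a median of the genes. That of the lactate genes was 0.87, and 1.56 as a median. The balance of SLC2A3 over SLC2A10 was 11.59 in log2 and 6.26 with a pseudocount of 1 TPM. Centring on the median of expressed genes, a shift of 0.15, changed no call among the 42 genes. It moved the share of all calls that were higher in RC77 T/E cells from 49.2% to 57.5%.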

Other observations

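ENO2, the neuronal enolase gene, was at 3.36 or 33.6 TPM in MDA PCa 2b cells and at 16.4 or 164 TPM in RC77 T/E cells, a ratio of 4.86. It was named after its values were seen. HKDC1, a hexokinase gene chosen in the same way, was at 0.0135 and 2.05 TPM. LDHC, the germ cell lactate dehydrogenase gene, had 1.14 TPM in MDA PCa 2b cells and was listed at 0 in RC77 T/E cells. LDHD, which acts on D-lactate, was at 2.08 and 0.640 TPM. These were also named after their values were seen. Among the lactate dehydrogenase genes LDHB was thus higher in RC77 T/E cells, whereas LDHC and LDHD had their higher values in MDA PCa 2b cells, at low levels. LDHAL6A (0.0688 and 0.175 TPM) and LDHAL6B (0.112 and 0.258 TPM), also low, had their higher values in RC77 T/E cells.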
